A study of Homo sapiens with 10 samples.

Results

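The region described here is the 3 Mb around MYC on human chromosome 8, hg19 chr8:127500000-130500000, with MYC at chr8:128748315-128753680. Its members are all CUT&RUN peaks of the 8 peak lists of the study that lie in this window, 2119 of 543439 peaks. The 6 BRD9 lists were merged into regions wherever peaks overlapped by at least 1 bp, which gave 486 of 119939 regions. Of these, 161 lay upstream of MYC, 323 downstream and 2 over the gene. The window is not centred on MYC, with 1.25 Mb upstream and 1.75 Mb downstream of the gene. A merged region was called gained when it held a peak in 3 of 3 lists after SMARCB1 induction and in 0 of 3 after GFP induction, and lost in the reverse case.

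CUT&RUN uses an antibody to direct a nuclease to a chromatin protein, and the DNA released around the protein is sequenced. The study compared BRD9 binding in G401 cells with and without SMARCB1. G401 is a rhabdoid tumour line, and the labels give all samples the genotype SMARCB1(-/-), so the control cells lack SMARCB1 too. A group of 3 BRD9 samples came from cells in which doxycycline (dox) induced green fluorescent protein (GFP), and 3 from cells in which it induced SMARCB1 (SB1), both with a polyclonal BRD9 antibody. A further 2 samples were profiled with a rabbit monoclonal SMARCB1 antibody after SMARCB1 induction. The series holds 10 samples. The SMARCB1 sample after GFP induction and the IgG sample after SMARCB1 induction were not analysed here, so the SMARCB1 peaks have no control group and the induction itself was not checked. The labels do not say whether replicates were separate cultures, and p-values then measure only the spread between these samples.

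MYC encodes a transcription factor that drives growth and proliferation genes. It lies in a gene-poor part of chromosome 8 and is known to be controlled by enhancers spread over long distances on both sides, of which different cell types use different ones. Its neighbours in gene order are the long noncoding RNA genes CASC11 and PVT1. SMARCB1 is a core subunit of the canonical BAF and PBAF forms of the SWI/SNF chromatin remodellers and is absent from the noncanonical form, which BRD9 marks. Rhabdoid tumours are known for the loss of SMARCB1.

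The BRD9 libraries held between 10.1 and 13.9 M reads (M stands for 1000000) and the SMARCB1 libraries 64.2 M and 59.7 M reads. The BRD9 lists shared a control library of 23.1 M reads. A BRD9 peak of the window held a median of 22.5 to 33 reads depending on the list, so the absence of a peak shows only that the caller's threshold was not passed at this depth. In bulk libraries, more cells with BRD9 at a region and more BRD9 per cell cannot be told apart.

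At MYC itself, BRD9 was called over the start of the gene in all 6 lists, and after SMARCB1 induction its peaks reached further into the gene. The read density of the peak over the start, in reads per kilobase and per 1000000 library reads (RPKM), was 5.68, 7.54 and 5.82 in GFP replicates 1, 2 and 3. In SB1 replicates 1, 2 and 3 it was 6.07, 4.79 and 4.76. The densities of the groups overlapped. The peaks ended 0.409, 0.425 and 0.788 kb past the start of MYC in the GFP lists, against 1.144, 2.126 and 1.061 kb in the SB1 lists. Over the whole genome, too, peaks were wider in every SB1 list (medians of 607, 556 and 550 bp) than in any GFP list (505, 443 and 530 bp), and the part of this in the values at MYC was not tested.

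Peaks covered 7.62%, 14.4% and 21.8% of MYC in the GFP lists. In the SB1 lists they covered 37.0%, 69.8% and 64.7%. Every SB1 list thus covered more of the gene than any GFP list. Mean coverage was 14.6% ± 7.09 after GFP and 57.2% ± 17.7 after SMARCB1 induction (SD, n = 3 each). This difference of 42.6 percentage points had p = 0.1 in an exact two-sided permutation test, the smallest p that 3 against 3 samples can give. This measure was added after the peaks at MYC had been seen. It was not computed at other genes, so how common such a separation is over the genome is not known.

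Both SMARCB1 lists held a single peak over the whole of MYC. The SMARCB1 region there, chr8:128744026-128760201, was 16.2 kb wide, with 2.92 and 3.37 RPKM in replicates 1 and 2 against 0.875 and 0.857 RPKM in the control library. BRD9 peaks took up 27.7%, 32.9% and 38.0% of that region in the GFP lists and 43.4%, 51.2% and 50.1% in the SB1 lists. The groups did not overlap, but the region contains MYC and these are largely the same peaks, so this is no separate result.

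**Figure D1:**
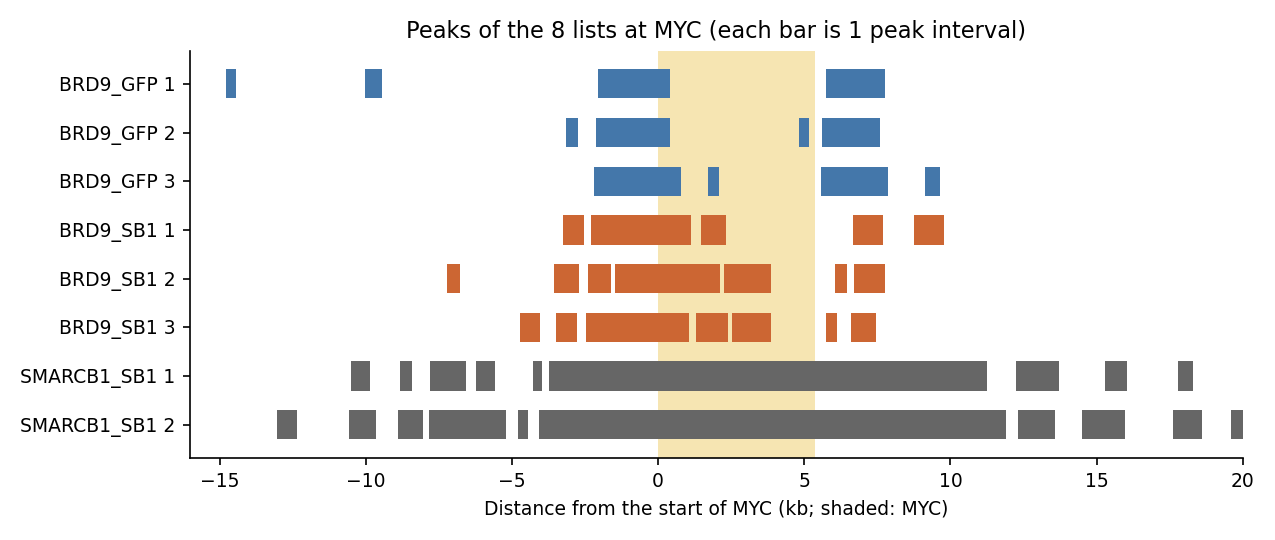
Peak intervals of the 8 lists at MYC, with distance from the start of MYC in kb on the horizontal axis, 1 row per list and the gene shaded. BRD9 peaks lie over the start and past the end of MYC in all 6 BRD9 lists and reach further into the gene in the 3 SB1 lists, and the SMARCB1 peaks span the gene.

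A second BRD9 element lay 0.221 kb past the end of MYC, at chr8:128753901-128756191, and was called in all 6 lists. Its density was 4.45, 6.71 and 4.79 RPKM in the GFP lists and 6.10, 4.66 and 5.14 RPKM in the SB1 lists, with the groups overlapping. Another, chr8:128820122-128824110, lay 66.4 kb downstream inside the widest SMARCB1 region of the window. Its density was 5.76, 8.79 and 7.25 RPKM in the GFP lists and 8.93, 8.66 and 7.91 RPKM in the SB1 lists, which also overlapped. Just upstream, chr8:128744771-128745776 was called in 3 SB1 lists and in GFP replicate 2 only, at 3.23 RPKM there and at 3.34 ± 0.580 RPKM (SD, n = 3) in the SB1 lists. Inside the gene near its end, chr8:128753135-128753482 was called in GFP replicate 2 alone, at 4.28 RPKM.

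Along the window, BRD9 in the control cells was concentrated at the far ends, more than 800 kb from MYC, and SMARCB1 induction added peaks in the intervals between. Of the 30 bins of 100 kb, 14 had more peaks in every SB1 list than in any GFP list. Among all 100 kb bins of the genome with a BRD9 peak in any list, 19.1% did so, beside 46.7% here. The reverse held in 5 bins, 16.7% against 5.77% of the genome's bins.

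The bins with most peaks in the control cells lay at the outer ends. The bin from 1248 to 1148 kb upstream of the start of MYC held 26, 31 and 26 peaks in the GFP lists and 21, 24 and 23 in the SB1 lists. The next one inward held 21, 26 and 23 against 18, 13 and 15, and had the largest fall. Downstream, the bin from 1052 to 1152 kb held 21, 17 and 26 against 16, 15 and 15. In each of these 3 bins the GFP lists were all above the SB1 lists, although the same bins were also among those with most peaks in the SB1 lists. The 3 largest falls in mean peak number were in the bins from 1148 to 1048 kb upstream and 1052 to 1152 kb downstream and in the bin from 948 to 848 kb upstream, which held 13, 12 and 15 peaks against 8, 8 and 5.

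The 3 largest rises lay side by side downstream. The bin from 352 to 452 kb held 1 peak in each GFP list and 14, 12 and 14 in the SB1 lists. From 452 to 552 kb, the numbers were 0, 1 and 0 against 14, 13 and 11. From 552 to 652 kb, they were 1, 0 and 0 against 12, 14 and 10. These bins went from almost no peak to a number close to that of the outer ends after SMARCB1 induction.

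**Figure D2:**
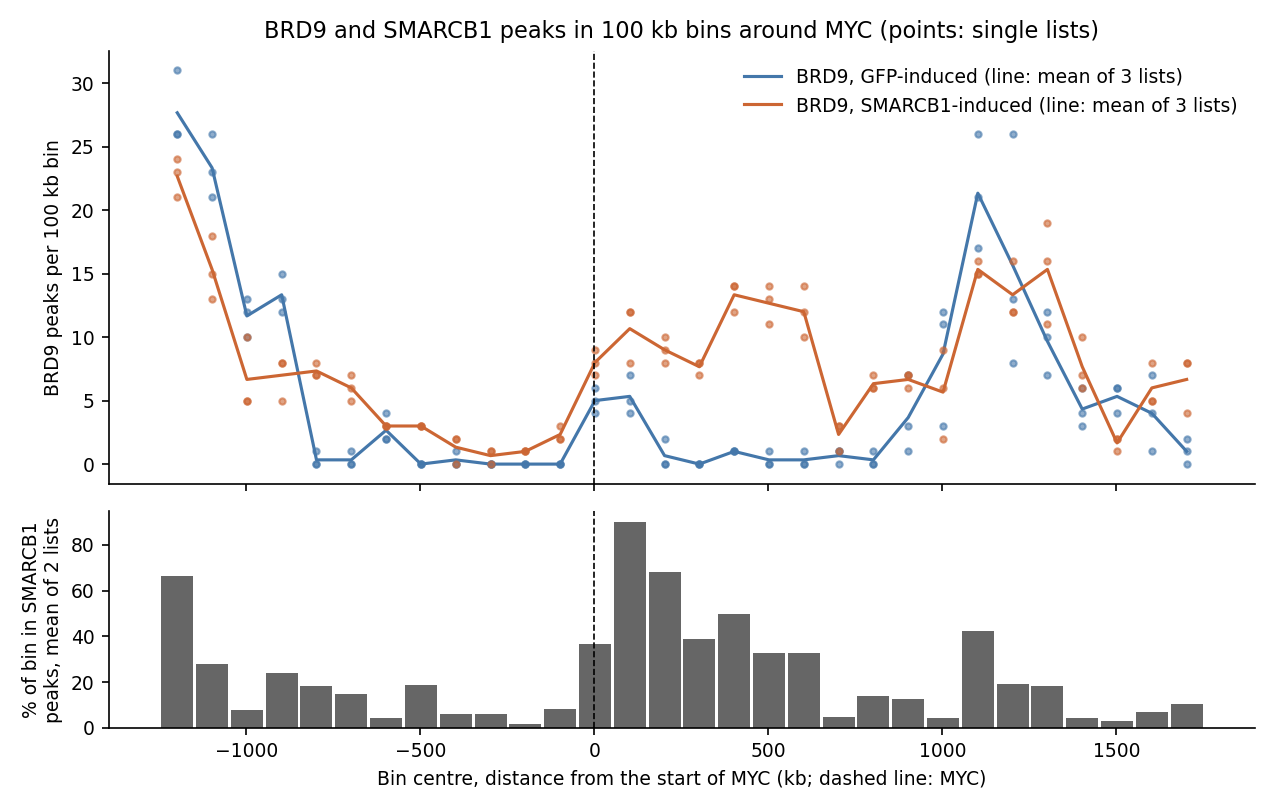
The upper panel plots BRD9 peaks per 100 kb bin against the distance of the bin's centre from the start of MYC in kb, with points for single lists and lines for the mean of 3 lists, and the lower panel the percent of each bin in SMARCB1 peaks as the mean of 2 lists. The GFP line is high only at the outer ends, and the SB1 line stays above it from MYC to beyond 652 kb downstream.

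The bins were joined into stretches after their values had been seen, so the stretches are a description without a test. From 152 to 652 kb downstream, the GFP lists held 2, 4 and 1 peaks and the SB1 lists 56, 55 and 53. Peaks there covered a mean of 0.824 kb after GFP induction and 54.3 kb after SMARCB1 induction, and SMARCB1 peaks covered 44.3% of the stretch. This stretch alone held 30 of the 77 gained regions.

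On the upstream side, from 848 to 48.3 kb before MYC, the GFP lists held 3, 3 and 5 peaks and the SB1 lists 24, 24 and 26, with 13 gained regions. Around the gene, from 48.3 kb upstream to 152 kb downstream, the numbers were 9, 11 and 11 against 19, 20 and 17. All SB1 lists were above all GFP lists in both stretches. From 652 to 952 kb downstream, the GFP lists held 7, 2 and 5 peaks against 15, 15 and 16.

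The outer stretches behaved otherwise. From 1248 to 848 kb upstream, the GFP lists held 73, 79 and 76 peaks and the SB1 lists 52, 55 and 48, so that every SB1 list was below every GFP list. From 952 to 1252 kb downstream, the numbers were 58, 28 and 51 against 41, 29 and 33, which overlapped. At the end of the window, past 1252 kb, they were 30, 16 and 27 against 44, 27 and 41, again with overlap.

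Over the whole window, the GFP lists held 182, 143 and 176 BRD9 peaks and the SB1 lists 251, 225 and 234. The average was 167 ± 21 after GFP and 237 ± 13.2 after SMARCB1 induction (SD, n = 3 each), a log2 ratio of 0.50. The groups did not overlap, which gave p = 0.1 in an exact two-sided permutation test, or 0.15 after Benjamini-Hochberg adjustment over the 6 such tests. An equal tiling of the genome gave 917 windows of 3 Mb with at least 10 BRD9 peaks, and in 45.6% of them the SB1 lists were likewise all above the GFP lists, and in 9.16% all below. By its mean number of peaks, the MYC window ranked 32 of 917 in the GFP lists and 5 in the SB1 lists. By the log2 ratio it ranked 421 of the 913 windows with a ratio, near the median window's 0.40.

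The sides of MYC differed in what they gained in total. Upstream, the lists held 79, 85 and 82 peaks after GFP and 78, 82 and 77 after SMARCB1 induction (82 ± 3 and 79 ± 2.65, SD, n = 3 each). These overlapped, with a log2 ratio of -0.054 and an exact permutation p of 0.3 (adjusted 0.3). Windows of that length had all SB1 lists below all GFP lists in 11.5% and above in 39.1% of the genome. Downstream, the numbers were 103, 57 and 93 against 172, 141 and 155 (84.3 ± 24.2 and 156 ± 15.5), a log2 ratio of 0.89 without overlap (exact permutation p = 0.1, adjusted 0.15). Windows of that length did the same in 42% of the genome.

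The ratio of downstream to upstream peaks within a list was compared after these values had been seen. It was 1.30, 0.671 and 1.13 in the GFP lists and 2.21, 1.72 and 2.01 in the SB1 lists. It averaged 1.04 ± 0.328 and 1.98 ± 0.245 (SD, n = 3 each), without overlap and with an exact permutation p of 0.1. The ratio was not computed elsewhere in the genome, so no background share stands beside it. GFP replicate 2 had the fewest downstream peaks of the 6 lists. The downstream flank is longer, so the ratio of peak numbers is not one of densities. Per Mb, the GFP lists held 63.3, 68.1 and 65.7 peaks upstream and 59.0, 32.6 and 53.3 downstream. The SB1 lists held 62.5, 65.7 and 61.7 upstream and 98.5, 80.7 and 88.8 downstream. Each GFP list was thus denser upstream and each SB1 list denser downstream.

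The fold difference was greater within 1 Mb of MYC than over the whole window, but it was not greatest at the gene. From 48.3 kb upstream to 152 kb downstream, the mean peak numbers were 10.3 after GFP and 18.7 after SMARCB1 induction, 1.81-fold. From 152 to 652 kb downstream the means differed 23.4-fold (2.33 and 54.7), and from 848 to 48.3 kb upstream 6.73-fold (3.67 and 24.7). The last 2 folds rest on few peaks in the GFP lists. These stretches were drawn after the values were seen and are 200, 500 and 800 kb long. The folds therefore do not give the order of peaks added per length. Within 1 Mb of MYC on each side, the GFP lists held 43, 34 and 46 peaks and the SB1 lists 127, 126 and 121. That is 41 ± 6.24 against 125 ± 3.21 (SD, n = 3 each), a log2 ratio of 1.60 (exact permutation p = 0.1). In 41.9% of windows of that length the groups stood apart in the same direction. Covered length within 1 Mb was 31.4, 21.5 and 32.9 kb against 119, 104 and 103 kb, 3.80-fold in the means.

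The length covered by BRD9 peaks in the whole window was 201, 123 and 199 kb in the GFP lists and 251, 204 and 205 kb in the SB1 lists. On average it was 174 ± 44.8 and 220 ± 26.9 kb (SD, n = 3 each), a log2 ratio of 0.34 (exact permutation p = 0.1, adjusted 0.15), and 53% of the genome's windows stood apart in that direction and 5.56% in the other. Without GFP replicate 2, the lowest list, the log2 ratio was 0.14, and without SB1 replicate 1, the highest, it was 0.23. The exact permutation p was then 0.5 in both cases. The groups overlapped when only the higher-scoring peaks of each list were kept (exact p = 0.6) and with equal numbers of top peaks (exact p = 0.2). The log2 ratio ranked 524 of 913 windows, under the median window's 0.56.

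Reads in the peaks of the window amounted to 888, 741 and 911 per 1000000 library reads in the GFP lists and 1149, 984 and 873 in the SB1 lists. SB1 replicate 3 fell below GFP replicates 1 and 3, so the groups overlapped. Group means of 847 ± 92.2 and 1002 ± 139 (SD, n = 3 each) corresponded to a log2 ratio of 0.24, with an exact permutation p of 0.3 (adjusted 0.3). In 51.7% of the genome's windows the SB1 lists were all higher, and in 8.4% all lower. Without GFP replicate 2 the log2 ratio was 0.16, and without SB1 replicate 1 it was 0.13. The log2 ratio ranked 533 of 913 windows, under the median window's 0.54.

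Where BRD9 peaks lay relative to SMARCB1 also differed. A SMARCB1 region is a merged interval that holds a peak of both SMARCB1 lists. The share of BRD9 peaks at such regions was 37.9%, 52.4% and 39.8% in the GFP lists and 79.3%, 82.7% and 79.9% in the SB1 lists. The mean share went from 43.4% ± 7.91 to 80.6% ± 1.80 (SD, n = 3 each). The shares of the groups did not overlap and lay 37.2 percentage points apart in the mean (exact permutation p = 0.1, adjusted 0.15). The groups stood apart in that direction in 71.4% of the 875 windows with a share in every list. In the rest of the genome, over all peaks pooled, the share was 20.4%, 41.7% and 29.3% against 57.0%, 65.2% and 65.0%. Taken window by window, the MYC window was ordinary. The median window had a mean share of 41.9% in the GFP lists and 82.7% in the SB1 lists. The MYC window ranked 419 and 467 of 875. Its difference ranked 272, beside 27.4 percentage points in the median window.

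In numbers, peaks at SMARCB1 regions went from 69, 75 and 70 to 199, 186 and 187 (2.67-fold in the means). Peaks away from them went from 113, 68 and 106 to 52, 39 and 47, a log2 ratio of -1.06. The groups did not overlap in either set, and the SB1 lists were higher in the first set and lower in the second. How many of the genome's windows did the same was not computed for these numbers, so they do not set the MYC window apart.

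**Figure D3:**
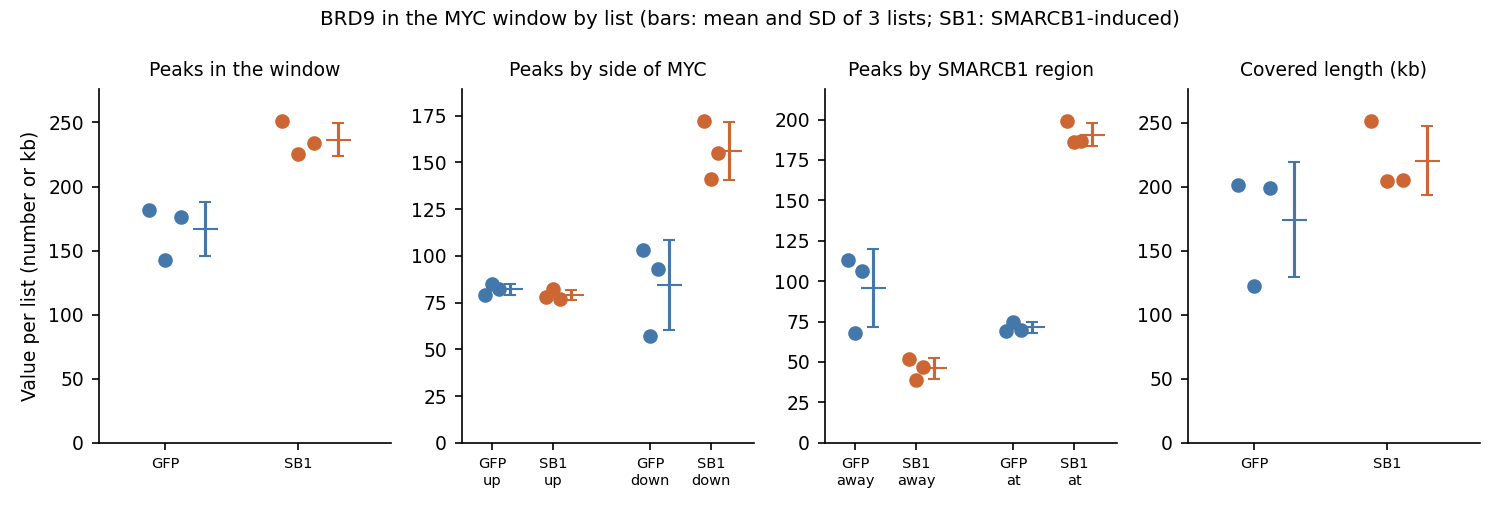
BRD9 in the 3 Mb window by list: the number of peaks, peaks upstream (up) and downstream (down) of MYC, peaks away from and at SMARCB1 regions, and covered length in kb. Points are single lists and bars the mean and SD of 3 lists. The groups overlap upstream of MYC and stand apart in the other panels.

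The gained regions numbered 77, or 15.8% of the merged regions of the window against 6.85% over the genome. No other of the 917 windows held more, and the median window held 5. The window was also rich in merged regions of any class, with 486 against 93 in the median window (rank 13 of 917). Windows were not ranked by the gained share, and the part of region number in the first rank was not tested. Downstream of MYC lay 58, over 1.75 Mb, and upstream 19, over 1.25 Mb. Their median distance from the gene was 643 kb, and 25 of the 30 bins held at least 1. Within 100 kb of MYC there were 4 and within 500 kb 26. Of all 77, 73 (94.8%) lay at a SMARCB1 region, which over the genome was true of 95.9% of gained regions.

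The gained regions had a median width of 1251 bp, against 676 bp for all merged regions of the window and 1082 bp for gained regions over the genome. Their mean density ran from 2.75 to 7.39 RPKM with a median of 3.98, beside a median of 0.968 RPKM in the control library. The nearest one downstream, chr8:128775776-128776952, lay 22.1 kb from MYC with 3.02, 3.26 and 3.20 RPKM in the 3 SB1 lists. The nearest upstream, chr8:128699251-128700375, lay 47.9 kb away with 4.28, 4.26 and 3.41 RPKM. All densities of gained regions describe the SB1 lists alone, since the rule leaves no peak in a GFP list.

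The gained region with the highest density lay next to that upstream one. It was chr8:128695976-128697611, 50.7 kb upstream of MYC, with 7.51, 8.45 and 6.20 RPKM from 149, 111 and 108 reads, beside 1.38 to 1.59 RPKM in the control library. Its mean density per length, 7.39 ± 1.13 RPKM (SD, n = 3), stood beside 4.84 ± 0.600 RPKM at the region over the start of MYC in the same lists, and it was the higher of both in each of the 3. The other regions among the 5 nearest were chr8:128843429-128844878 at 89.7 kb and chr8:128875846-128877099 at 122 kb downstream, with means of 3.51 and 3.80 RPKM.

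The remaining regions of high density all lay between 426 and 643 kb downstream, in the bins with the largest rises. They were chr8:129325826-129328103 with a mean of 6.98 RPKM, chr8:129396944-129400068 with 6.72 and chr8:129179526-129181820 with 6.37. The last, chr8:129331783-129337613, had 6.29 ± 0.507 RPKM (SD, n = 3) and was 5830 bp wide. It rested on 454, 342 and 439 reads.

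The lost regions numbered 8, or 1.65% of the merged regions against 1.04% over the genome. None lay within 943 kb of MYC: 5 were upstream, at 943 to 1174 kb, and 3 downstream, at 1280 to 1541 kb. A lost region needs a peak in all 3 GFP lists. Within 1 Mb of MYC these held only 43, 34 and 46 of their 182, 143 and 176 peaks, so few regions there could be called lost. Only 1 of the 8 (12.5%) lay at a SMARCB1 region, against 28.4% of lost regions over the genome. It was chr8:127622991-127624751, with 6.38, 8.89 and 6.03 RPKM in the GFP lists. The upstream others were chr8:127573117-127573892 with a mean of 4.39 RPKM, chr8:127696876-127698326 with 3.17, chr8:127744976-127746726 with 3.23 and chr8:127802862-127804851 with 3.20. Those downstream were chr8:130033426-130034453 with 2.93, chr8:130049751-130050831 with 3.47 and chr8:130294323-130295751 with 3.32 RPKM.

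The 7 lost regions away from SMARCB1 thus had means from 2.93 to 4.39 RPKM, around the median of 3.29, 3.58 and 3.39 RPKM over all peaks of the window in the GFP lists. The control library had a median of 0.497 RPKM at the 8. Leaving out GFP replicates 1, 2 and 3 in turn gave 14, 25 and 16 lost regions. The rule then asks for fewer lists, so a higher number comes with the looser rule. It does not show dependence on a single list. Just outside the rule, 40 regions were called in 2 SB1 lists and 0 GFP lists (8.23% of the window's regions against 5.77% over the genome) and 13 in 3 SB1 lists and 1 GFP list (2.67% against 1.28%). On the other side, 23 were called in 2 GFP lists and 0 SB1 lists (4.73% against 4.66%) and 8 in 3 GFP lists and 1 SB1 list (1.65% against 0.979%).

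**Figure D4:**
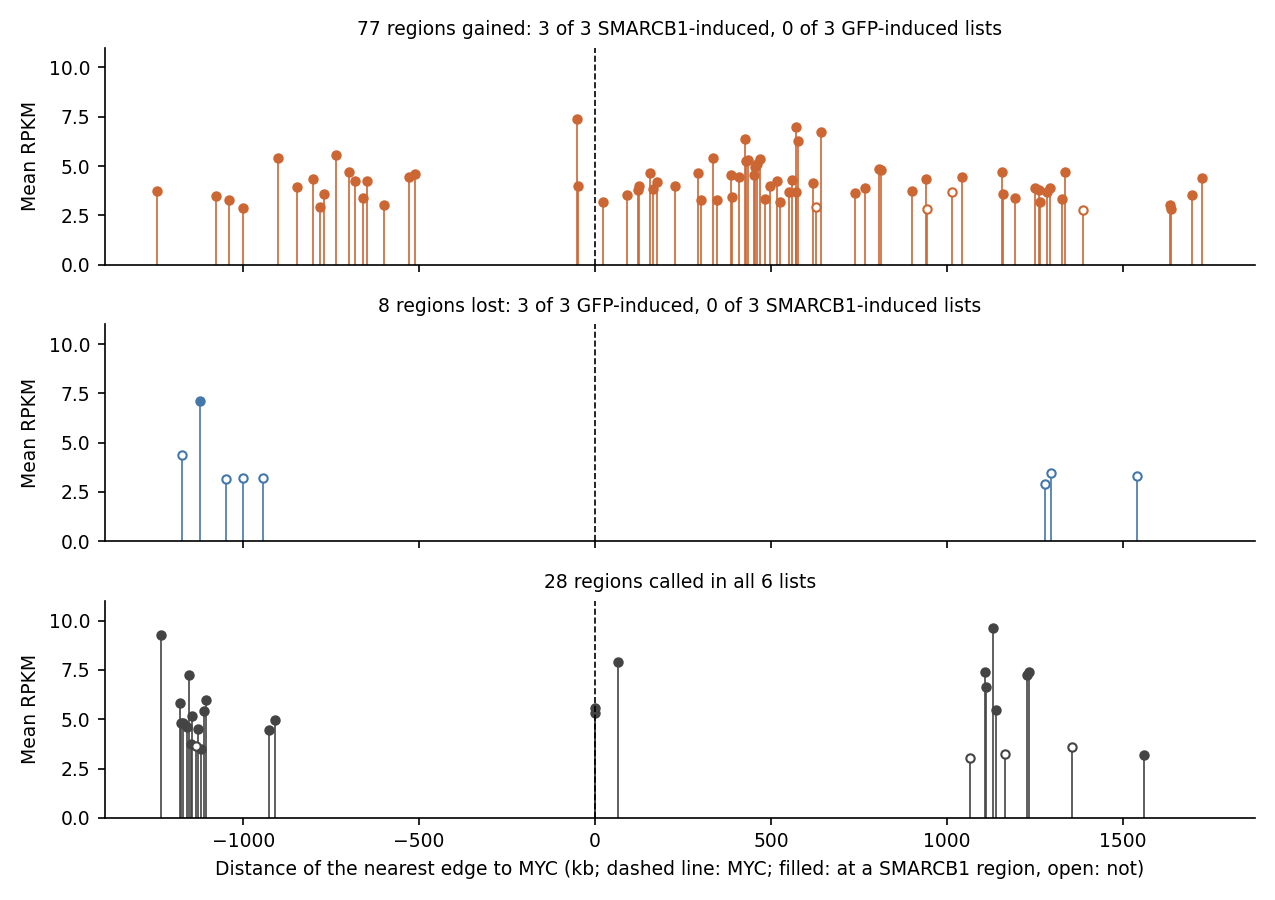
Mean BRD9 density in RPKM of the 77 gained regions, the 8 lost regions and the 28 regions called in all 6 lists, against the distance of their nearest edge to MYC in kb. Filled points lie at a SMARCB1 region. Lost regions lie 943 kb or more from MYC, and the GFP lists hold few peaks nearer to the gene that could be lost. Gained regions spread along the window, with 30 of them from 152 to 652 kb downstream.

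Regions called in all 3 lists of a group were followed into the other group. Of the 49 regions called in all 3 GFP lists, 41 (83.7%) had a peak in at least 1 SB1 list, against 86.8% over the genome. Of the 122 called in all 3 SB1 lists, 45 (36.9%) had a peak in at least 1 GFP list, against 51.8% over the genome. By length, 2.20% of the window was covered in all SB1 lists and no GFP list, and 97.4% of that length lay in SMARCB1 regions. The reverse held for 0.498% of the window, of which 52.1% lay there. All 6 lists covered 1.34%, of which 96.2% lay there. These lengths can include parts of regions called in both groups, and no genome shares were computed for them.

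The regions called in all 6 lists numbered 28, or 5.76% of the merged regions against 4.67% over the genome. They lay in 3 groups: 15 far upstream, from 911 to 1233 kb, 3 at or near MYC, and 10 more than 1000 kb downstream. SMARCB1 regions held 24 of them (85.7%, against 59.6% over the genome). Their median width was 3640 bp, against 2423 bp over the genome, and SMARCB1 regions took up 24.1% of the window against 5.77% of the genome. Both leave more room for an overlap, and their part in the higher share was not tested. The control library had a median of 1.08 RPKM at these 28 regions. The densest were chr8:129885483-129888565, 1132 kb downstream, with 10.6, 12.6 and 8.14 RPKM in the GFP lists and 10.2, 8.26 and 7.97 in the SB1 lists, and chr8:127508511-127514982, 1233 kb upstream. At the latter the values were 9.14, 12.5 and 10.3 against 7.70, 7.77 and 8.16 RPKM, with every GFP list above every SB1 list.

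Read density at such regions was compared with edgeR's quasi-likelihood test over all 5598 regions of the genome called in all 6 lists, with library size and peak length as offset. In the window 1 region was higher and 1 lower after SMARCB1 induction at an adjusted p under 0.05. Over the genome these shares were 0.411% and 1.11%. An unadjusted p under 0.05 was reached by 10 of the 28 (35.7%) and by 18.2% of all 5598. The log2 ratio was above 0 at 7 and below at 21 (75.0%, against 78.5% of all 5598), with a median of -0.25 against -0.19 over all 5598. With TMM scaling, which moved the median of all regions to 0.038, the window's median was -0.044.

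Neither region at MYC passed the test. At the region over the start, chr8:128745851-128752176, the density over all its peaks was 5.68, 7.54 and 5.57 RPKM in the GFP lists and 5.53, 4.43 and 4.56 in the SB1 lists. Every GFP list was above every SB1 list, with a log2 ratio of -0.37 ± 0.17 (SE) and an adjusted p of 0.27 by edgeR. Peaks there were wider in the SB1 lists, and with library size alone in the offset, which compares reads and not density, the log2 ratio was 0.57 (adjusted p = 0.12). At the element past the end of MYC the log2 ratio was -0.015 ± 0.19 (SE, adjusted p = 0.97 by edgeR), and its sign changed between alternatives.

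The region called higher was chr8:127835701-127837684, 911 kb upstream and at a SMARCB1 region. Its density was 2.72, 3.45 and 2.96 RPKM in the GFP lists and 6.47, 8.05 and 6.21 in the SB1 lists, without overlap. The log2 ratio was 1.14 ± 0.19 (SE), with an adjusted p of 0.00916 by edgeR. Across alternatives the adjusted p ran from 1.59e-05 to 0.0925, and the call was lost when any 1 of the 3 SB1 lists was left out, at log2 ratios of 1.18, 1.03 and 1.21 without SB1 replicates 1, 2 and 3. DESeq2 gave a log2 ratio of 1.15 and no adjusted p, because the region's mean of 51.2 normalised reads was under that tool's filter of 82.4, so no call was made there.

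The region called lower was chr8:127630567-127636437, among the bins with the largest falls. Its density was 5.85, 8.67 and 7.18 RPKM in the GFP lists and 3.51, 4.30 and 3.15 in the SB1 lists, again without overlap. The log2 ratio was -1.01 ± 0.19 (SE), with an adjusted p of 0.0132 by edgeR. Across alternatives it ran from 1.56e-05 to 0.245, and the call was lost with TMM scaling and without any 1 of the 3 SB1 lists.

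**Figure D5:**
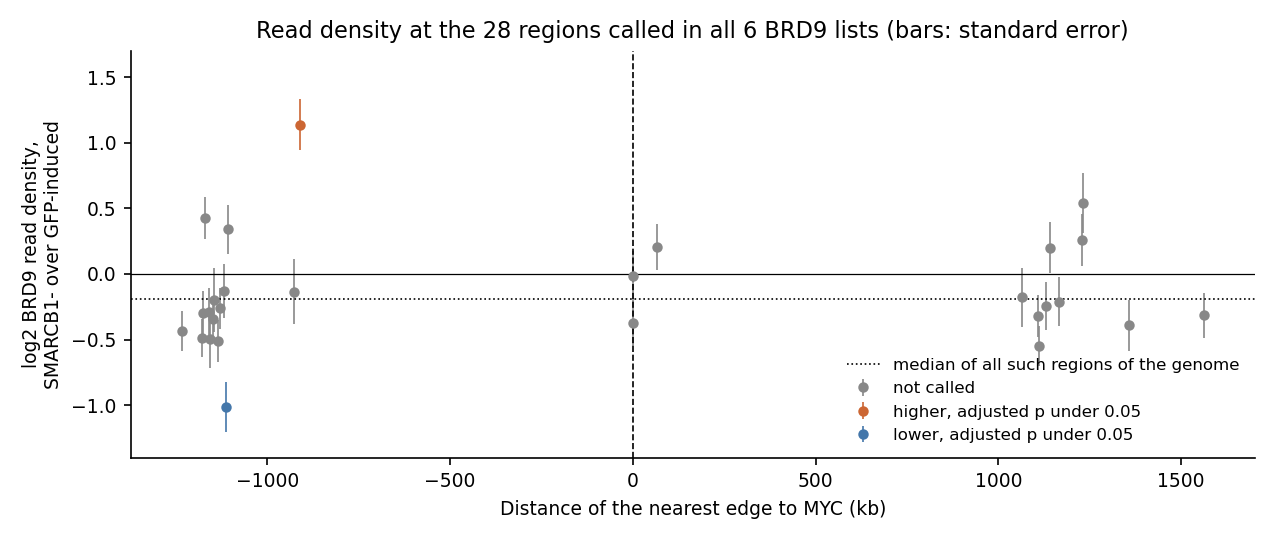
Log2 ratio of BRD9 read density, SMARCB1-induced over GFP-induced, at the 28 regions called in all 6 lists, against the distance to MYC in kb, with bars for the standard error. The dotted line is the median of all 5598 such regions. The region that rose and the one that fell both lie upstream, and the 2 points at MYC lie at -0.37 and -0.015.

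SMARCB1 itself covered much of the window. The SMARCB1 lists held 457 and 451 peaks there, and 285 regions with a peak of both took up 724 kb, or 24.1% of the window against 5.77% over the genome. Their median width was 1481 bp against 1225 bp over the genome, and 12 of them were 10 kb or more wide. Of the replicate 1 peaks, 80.5% overlapped a replicate 2 peak, and 68.5% in the other direction.

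The widest SMARCB1 regions lay just downstream of MYC. The first, chr8:128810351-128840976, was 30.6 kb wide with a mean of 2.72 RPKM, and the next, chr8:128861001-128881272, 20.3 kb wide with 2.75 RPKM. The bin from 51.7 to 152 kb downstream was covered by SMARCB1 peaks over 90.1% of its length. Next in width, chr8:127506376-127523776, lay 1225 kb upstream, was 17.4 kb wide and had a density of 4.45 ± 0.453 RPKM (SD, n = 2). The only region denser than it was chr8:129880626-129890826, with 5.82 ± 0.788 RPKM, and the next was chr8:129982801-129989316, with 3.76 ± 0.864 RPKM. The neighbours of the region over MYC, chr8:128740476-128743101 and chr8:128760550-128762031, were 2625 and 1481 bp wide and had means of 1.58 and 1.71 RPKM.

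SMARCB1 regions of the window differed in their BRD9. In all 6 BRD9 lists a peak was present at 23 of the 285 (8.07%, against 3.43% of SMARCB1 regions over the genome). In 3 SB1 lists and 0 GFP lists it was present at 60 (21.1% against 7.35%), and in 0 of 6 lists at 99 (34.7% against 63.1%). The first set had a median width of 6105 bp and a median SMARCB1 density of 2.96 RPKM. The second had 2600 bp and 1.89 RPKM, and the set without BRD9 1000 bp and 1.41 RPKM. Both medians were thus highest at regions with BRD9 in all 6 lists and lowest at regions without it. Any BRD9 peak overlapping a region counted, so wider regions had more room for one. The part of this in the order of the medians was not tested.

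Across the 30 bins, the percent covered by SMARCB1 peaks and the mean number of BRD9 peaks had a Pearson r of 0.65 (Spearman rho 0.79) in the SB1 lists and 0.28 (rho 0.21) in the GFP lists. For the difference of the means, SB1 minus GFP, r was 0.22 (rho 0.31), and the GFP and SB1 means had an r of 0.69 (rho 0.56) with each other. The bins are neighbours on 1 chromosome and share the same libraries, so these values are a description without a p-value.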

How the data were processed

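The authors called peaks in each sample separately and deposited 1 list per sample. Per the file headers a list holds a sample and a control read count per peak, the authors' RPKM values in sample and control, a log2 ratio, and a −log10 score. The submitters' processing notes name BWA 0.7.12-r1039, SAMtools, bedtools, DiffBind and edgeR without their roles, and the build hg19. The peak caller is not given in the sources used here. Groups and replicate numbers came from the sample titles.

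From these lists, library sizes were recovered from counts, RPKM and peak length. BRD9 peaks of the 6 lists were merged (overlap of at least 1 bp). The RPKM of a merged region was recomputed from the summed counts and lengths of its peaks. Window totals were compared by exact two-sided permutation tests, and densities with edgeR 4.0.16 (limma 3.58.1 and DESeq2 1.42.0 as alternatives, R 4.3.3), adjusted by Benjamini-Hochberg over all 5598 regions. A region enters that test only if it has a peak in every list, which leaves out gained and lost regions. The scripts were tested on simulated data. Background windows of 3 Mb and bins of 100 kb tiled the genome in register with the MYC window. Named were regions at or next to MYC, all lost regions, the 5 nearest and 5 densest of the other classes, and the extreme bins and SMARCB1 regions. Of the regions called in all 6 lists, only those the results turn on are given in full. The members and lists were chosen with earlier results of these data known. An annotation of hg19 was not used here, so neighbouring genes are given only by their order in a RefSeq table of another build. Alternatives were the score threshold, merging distance, calling rule, SMARCB1 regions, scaling, window size, leaving out each list, and pairing by replicate number.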

Additional observations from a re-analysis of the deposited data

How the results depend on the processing

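Of 146 values recomputed under alternatives, 116 were counted as the same, 17 moved, 7 lost their call and 6 changed sign. The replicate block cannot change group means, so its values for the 6 window measures count as the same by design. For counts, the same means a similar number. Log2 ratios counted as the same could still differ in size or in the separation of the groups. Covered length, with a log2 ratio of 0.34, had 1.92 within 1 Mb of MYC. With only the higher-scoring peaks it had 0.25, at an exact permutation p of 0.6. Gained regions numbered 117 when 2 of 3 lists were enough, 222 when 1 was enough (an alternative added after seeing the data), 130 with the replicate block and 79 to 95 with 1 list left out. They numbered 55 with only the higher-scoring peaks of each list, 71 with equal numbers of top peaks and 72 when peaks within 500 bp were merged. Lost regions numbered 31, 166, 39, 10 to 25, 11, 10 and 6 in the same order. With 1 list left out the rule asks for fewer lists, so gained and lost numbers come out higher with the looser rule. SMARCB1 regions numbered 516 when a peak of either replicate was enough, 190 with only the higher-scoring peaks and 219 when peaks within 500 bp were merged. Regions of the window called by edgeR numbered 1 with TMM scaling, 10 with library size alone in the offset, 5 with the replicate block and 0 to 9 with 1 list left out. The cause was not tested, beyond the missing length correction in the second of these.

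At the region over the start of MYC, library size alone in the offset gave a log2 ratio of 0.57. At the element past its end, TMM scaling gave 0.20, limma on log2 RPKM 0.0099, and leaving out 1 list -0.13 to 0.18. The peak number in the window kept a log2 ratio of 0.40 to 0.57 with 1 list left out, and with the score threshold its groups overlapped (log2 ratio 0.47, exact permutation p = 0.2). Same-numbered BRD9 samples deviated together only weakly (correlations of 0.084, 0.042 and 0.031), though more than samples of different numbers (-0.051 to 0.0070). Given these small values, the numbers were not taken as pairs in the main tests. With the replicate block, the sign-flip p was 0.25 for the peak number, covered length, share at SMARCB1 regions and each side of MYC, and 0.5 for reads, where 0.25 is the smallest p that 3 pairs can give. The median of 22.5 to 33 reads per peak limits what can be said of regions without a peak.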
